A study of Mus musculus with 6 samples.

Results

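Clustered histone genes were measured at reprogramming day 7 in mouse embryonic fibroblasts given OSKM, the factors Oct4, Sox2, Klf4 and Myc. Members were the genes whose symbol begins with Hist1h, Hist2h, Hist3h or Hist4h. The symbols name 65 genes of 23406 named genes in the files. They stood on 66 of 24879 gene rows, of which 60 were used after keeping the row with the highest mean for each entry. The Hist1 locus on chromosome 13 gave 48 rows, the Hist2 locus on chromosome 3 gave 8, the Hist3 locus on chromosome 11 gave 3 and Hist4h4 on chromosome 6 gave 1. By class there were 5 rows of the linker histone H1, 14 of H2A, 16 of H2B, 9 of H3 and 12 of H4, and 4 rows name genes of different classes together and are called mixed here.

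KO cells had both Adar1 alleles floxed (Fl/Fl) and received 4-hydroxytamoxifen, 4OHT (n = 2 libraries), and WT cells had the same Fl/Fl alleles and received vehicle (n = 2). MUT cells had 1 floxed allele and 1 E861A allele and received 4OHT (n = 1), and HET cells had the same alleles, Fl/E861A, and received vehicle (n = 1). Adar1 encodes the RNA-editing enzyme ADAR1, which turns adenosine into inosine, E861A is known to abolish its editing, and 4OHT is the usual inducer of a Cre recombinase that removes floxed sequence. All groups carried at least 1 floxed allele and OSKM. The Cre line is not named in the labels. No library received 4OHT with the alleles intact, so an effect of 4OHT or Cre and an effect of allele loss cannot be told apart. MUT also loses its floxed allele, so gene dose and editing cannot be told apart in MUT against HET. Nothing in the labels says that replicates were separate cultures, so the p-values cover the spread between libraries alone, and that spread may be technical.

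Histones package DNA: H2A, H2B, H3 and H4 form the core of the nucleosome, and H1 binds the linker DNA between cores. The clustered genes supply new histones while DNA is copied, and their transcripts usually end just past a short stem-loop without a poly(A) tail. That stem-loop is bound by SLBP, which guides their processing and translation, and in cells that leave the cycle some of these genes also give longer, polyadenylated transcripts. Libraries here were made from total RNA depleted of ribosomal RNA, per the labels' protocols, without a stated step of poly(A) selection.

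The stem-loops of the leading members, and of the members lower in KO, show the element by which the transcripts of this family are normally ended. Capitals mark the 16 letters of the stem-loop, with up to 4 bases on each side, 5′ to 3′ in the transcript, read from the GENCODE M 21 transcripts.
Hist1h1c: aaaaGGCTCTTTTCAGAGCCacca
Hist3h2a: caaaGGCTCTTTTCAGAGCCaccc
Hist1h2bg: caaaGGCTCTTTTCAGAGCCaccc
Hist1h4i: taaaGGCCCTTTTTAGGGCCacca
Hist1h4h: caaaGGCCCTTTTCAGGGCCgccc
Hist1h4m: taaaGGCCCTTTTCAGGGCCatc
Hist3h2ba: caaaGGCTCTTTTCAGAGCCacct
Hist1h3c: aaaaGGCTCTTTTAAGAGCCacct
The letters searched, on the transcript strand, were an arm of GG, any 2 bases and CT, the loop TTTN, and the reverse complement of the arm. The last match in a transcript was taken. The form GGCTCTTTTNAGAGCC was found in 30 member genes, GGCCCTTTTNAGGGCC in 9 and GGTCCTTTTNAGGACC in 2. Together 41 of the 65 member genes (63.1%) had such letters in an annotated transcript, against 57 of 141767 transcripts in the whole annotation (0.0402%), members included. The GGCCC form stands in the 3 H4 genes above, and the GGCTC form in the H1, H2A, H2B and H3 genes above.

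Promoters from the 3 highest rows that were called in KO against WT show what the family shares upstream. The highest row names Hist1h2bc and Hist1h2bg together, and only Hist1h2bg had a window. The level of that row thus cannot be tied to the promoter shown. Each window runs from 250 bases before to 50 bases after the start, in RefSeq on GRCm38.p6. Capitals mark CCAAT on either strand, TATAAA on the plus strand, ATTTGCAT (the octamer, bound by Oct factors) on either strand and AAACACA (an element known from H1 promoters) on either strand.
Hist1h2bg, chr13:23571150-23571449, plus strand: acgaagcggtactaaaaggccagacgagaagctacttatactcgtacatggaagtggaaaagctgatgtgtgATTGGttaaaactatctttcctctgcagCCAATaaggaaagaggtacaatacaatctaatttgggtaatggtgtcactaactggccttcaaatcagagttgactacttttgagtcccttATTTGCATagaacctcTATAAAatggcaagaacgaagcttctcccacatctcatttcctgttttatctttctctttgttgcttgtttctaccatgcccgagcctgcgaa
Hist3h2a, chr11:58954435-58954734, plus strand: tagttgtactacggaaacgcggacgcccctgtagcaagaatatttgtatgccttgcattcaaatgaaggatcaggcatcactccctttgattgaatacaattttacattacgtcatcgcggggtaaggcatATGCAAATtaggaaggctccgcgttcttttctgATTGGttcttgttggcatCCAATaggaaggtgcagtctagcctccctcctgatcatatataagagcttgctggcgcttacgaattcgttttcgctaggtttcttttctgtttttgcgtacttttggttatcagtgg
Hist1h1c, chr13:23738557-23738856, plus strand: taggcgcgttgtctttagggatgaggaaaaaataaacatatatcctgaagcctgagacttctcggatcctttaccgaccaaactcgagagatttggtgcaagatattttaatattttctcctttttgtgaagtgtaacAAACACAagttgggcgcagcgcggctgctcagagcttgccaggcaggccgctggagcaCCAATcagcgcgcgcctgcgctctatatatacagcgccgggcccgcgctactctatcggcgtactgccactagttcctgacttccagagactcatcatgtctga
Of the 65 members, 59 had a window. CCAAT was in 50 of them (84.7%), against 37.9% of 27025 RefSeq promoters, and in 3 of 12 H4 windows but every window of the other classes. TATAAA was in 29 (49.2%, against 8.88% of all promoters). ATTTGCAT was in 13 (22.0%, against 1.75%), of which 7 were H2A and 6 were H2B genes. AAACACA was in 9 (15.3%, against 7.14%), including 5 of 6 H1 windows. These are matches of letters only, and whether a factor binds there was not tested.

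The files give FPKM, a level per length made from fragments divided by the transcript's length and the library's total. An estimate from the steps of low values, assuming 200-base fragments, gave 15900000 to 20500000 fragments per library. By it, 1 FPKM of a 500-base transcript stands for about 4.79 to 6.17 fragments. The step was sought within a range set beforehand, and 63 to 114 of 3616 genes lay near it, so the estimate is rough. Over 12266 genes, replicates correlated at a Pearson r of 0.995 in KO and 0.995 in WT. Adar, read over the whole gene, was higher with 4OHT, at 34.2 and 31.3 FPKM in KO, against 19.6 and 19.5 FPKM in WT, and at 33.0 FPKM in MUT, against 17.0 FPKM in HET. This goes against a loss of the whole transcript, but which exons are removed is not stated, and a whole-gene value is no check of the KO or MUT label. All 10 fibroblast markers reached 1 FPKM in some library, but so did all 9 pluripotency and all 4 epithelial markers.

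Many clustered histone genes were barely detected, about as often as genes at large. Of the 60 rows, 30 (50%) were under 1 FPKM in all 6 libraries, against 46.0% of all named genes, and 6 were at 0 throughout. A row was tested if it had at least 1 FPKM in at least 2 of the 6 libraries, and 24 of 60 passed. Of these, 4 passed only through libraries given 4OHT and 2 only through libraries given vehicle, so counts over the rows that passed describe them and carry no weight for the family. Only 5 rows averaged 10 FPKM or more: Hist1h2bc with Hist1h2bg, Hist1h1c, Hist3h2a, Hist1h4i and Hist1h4h. These 5 held 84.6% to 89.7% of the summed histone FPKM in each library. Rpph1, the RNA of RNase P, which has no poly(A) tail either and was chosen after its values were seen, stood at 10.9 and 3.92 FPKM in KO, against 74.9 and 55.3 FPKM in WT, and at 7.43 FPKM in MUT, against 64.9 FPKM in HET. Rpph1 is 1 gene, and other RNAs picked in the same way did not all fall with it. Malat1 was higher in KO, at 433 and 616 FPKM, against 332 and 357 FPKM in WT (limma adjusted p = 0.00677). Neat1 was higher too (adjusted p = 0.0208), Rmrp was not called (adjusted p = 0.106), and Terc stayed under 1 FPKM. Whether the libraries under-represent short or untailed RNA was not tested.

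**Figure D1:**
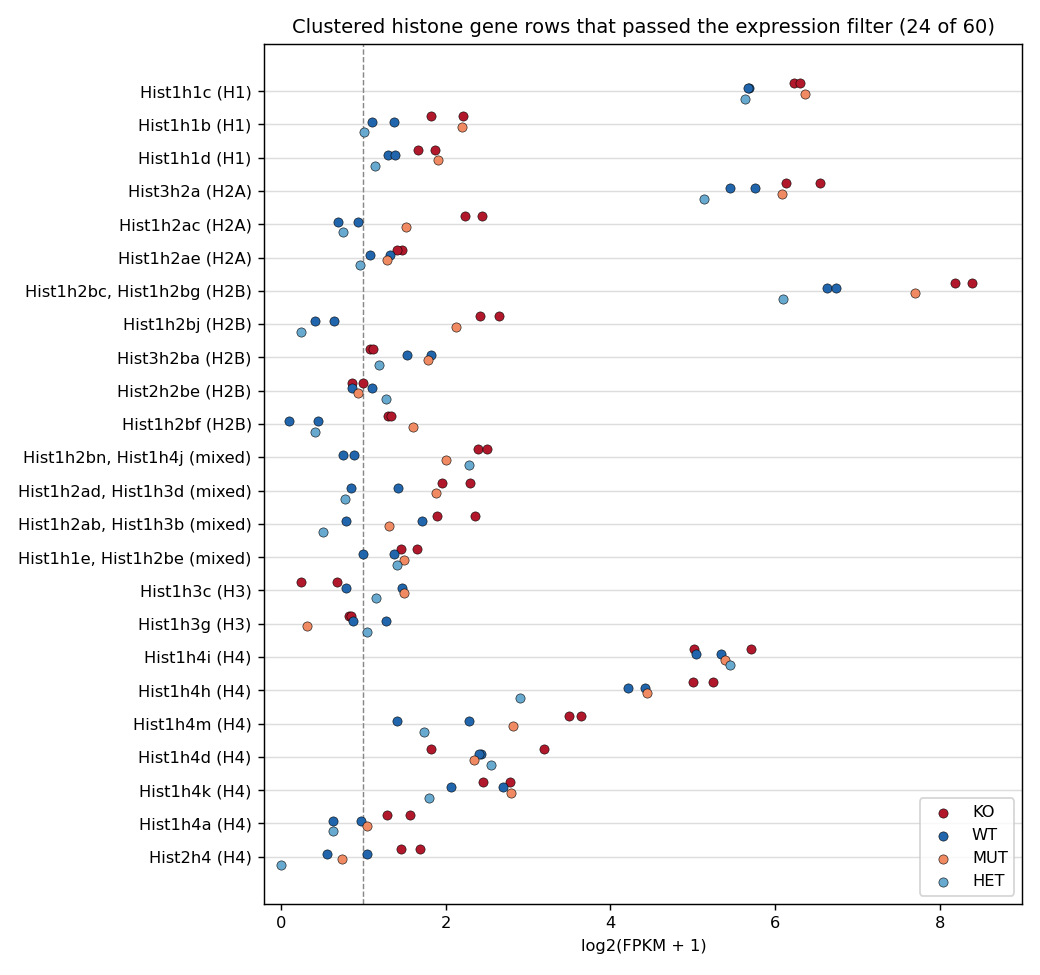
Level of each of the 24 tested rows as log2(FPKM + 1) on the horizontal axis, 1 point per library, with KO, WT, MUT and HET in separate colours and the dashed line at 1 FPKM. The row of Hist1h2bc and Hist1h2bg lies farthest right in every library, and its KO points (289 and 334 FPKM) stand right of its WT points (98.3 and 106 FPKM).

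Summed over its rows, the family was higher with 4OHT in both allele backgrounds. The 60 rows summed to 560 and 660 FPKM in KO, against 277 and 311 FPKM in WT, a ratio of 2.08 of the means, and to 472 FPKM in MUT, against 235 FPKM in HET, a ratio of 2.01. The KO libraries stood above both WT libraries, and MUT above HET. These are shares of bulk RNA, in which fewer cells of a type and less RNA per cell cannot be told apart. The family took 0.104% and 0.116% of named FPKM in KO, against 0.0512% and 0.0579% in WT. Much of this came from 1 row. Hist1h2bc with Hist1h2bg held 51.7% and 50.7% of the family's FPKM in KO, against 35.5% and 34.1% in WT, and 43.7% in MUT, against 28.5% in HET. The 55 rows below the leading 5 summed to 65.2 and 68.0 FPKM in KO, against 35.9 and 41.8 FPKM in WT, a ratio of 1.71, and to 56.3 FPKM in MUT, against 36.2 FPKM in HET, a ratio of 1.56.

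The classes differed in their sums. H1 summed to 82.4 ± 1.07 FPKM in KO and 53.7 ± 0.40 FPKM in WT (SD, n = 2 each), a ratio of 1.53. H2A summed to 87.7 ± 16.9 FPKM in KO and 52.8 ± 8.42 FPKM in WT, a ratio of 1.66, and H2B to 322 ± 30.3 FPKM in KO and 108 ± 5.87 FPKM in WT, a ratio of 2.99. These 3 classes had both KO sums above both WT sums, and MUT sums above HET sums at ratios of 1.73, 1.85 and 2.95. H4 summed to 101 ± 20.6 FPKM in KO and 70.2 ± 6.94 FPKM in WT, a ratio of 1.44, again without overlap, and the ratio of MUT to HET was 1.35. H3 had the lowest mean sum of the 5 classes, at 3.24 ± 0.56 FPKM in KO and 4.59 ± 1.19 FPKM in WT, and at 3.98 FPKM in MUT, against 4.37 FPKM in HET. Its KO sums, 3.64 and 2.84 FPKM, lay below its WT sums, 3.75 and 5.42 FPKM, with KO 1 and WT 1 close together. No H3 row averaged 10 FPKM, and the core classes were thus read at unlike levels. In H1, H2A and H2B most of the sum came from 1 row. In KO, Hist1h2bc with Hist1h2bg averaged 312 of the 322 FPKM of H2B, Hist3h2a 80.4 of the 87.7 FPKM of H2A and Hist1h1c 76.0 of the 82.4 FPKM of H1. Counted by row, the KO mean lay above the WT mean in 4 and below it in 1 of the 5 H1 rows, and in 5 and 7 of the 14 H2A rows. For the 16 H2B rows these counts were 7 and 4, for the 9 H3 rows 3 and 5, and for the 12 H4 rows 7 and 4. The median log2 difference over all rows of a class was 0.43 in KO minus WT and 0.76 in MUT minus HET for H1, -0.023 and 0 for H2A, 0 and 0.027 for H2B, -0.19 and 0 for H3, 0.13 and 0.42 for H4, and 0.93 and 0.45 for the mixed rows. The sums and the row medians of H2A and H2B thus differ, with the sums higher and the medians at or near 0.

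**Figure D2:**
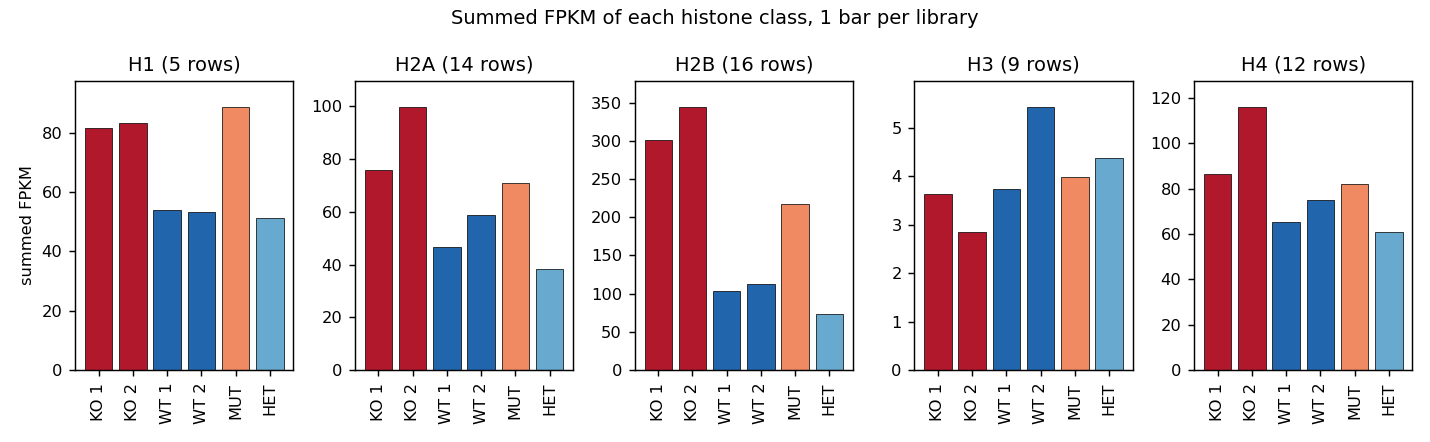
Summed FPKM of the rows of each class, 1 bar per library in the order KO 1, KO 2, WT 1, WT 2, MUT and HET, each panel with its own axis from 0. H2B reaches 301 and 344 FPKM in KO, against 104 and 112 FPKM in WT, while the H3 axis ends near 6 FPKM.

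Among the 24 tested rows, limma called 15 higher in KO and 2 lower, and 7 were not called (Benjamini-Hochberg adjusted p under 0.05 over 12266 genes). Over all tested genes 29.5% were called higher, 28.2% lower and 57.7% in either direction. Without the 6 rows that passed through 1 treatment only, 11 of 18 were higher and 2 lower. The median difference of the tested rows was 0.68 in KO minus WT and 0.75 in MUT minus HET on the log2(FPKM + 1) scale, against 0.02 and 0.01 for all tested genes. Over all 60 rows, the low ones included, the medians were 0.02 and 0.04, against 0 and 0 over all 23406 named genes. The KO mean was above the WT mean in 30, below it in 21 and equal in 9. Both KO libraries stood above both WT libraries in 17 of the 24 tested rows, against 40.9% of tested genes, and below them in 3, against 38% of tested genes. With no filter on low values, 6 of the 60 rows were called higher and 1 lower (Hist2h3b, which is under 0.15 FPKM in every library), and the adjusted p of the other 9 lay between 0.0636 and 0.347. These 9 were Hist3h2a, Hist1h4h, Hist1h4m, Hist1h1b, Hist1h1d, Hist1h4a, Hist2h4, Hist1h2ad with Hist1h3d, and Hist1h2ab with Hist1h3b. In that fit 8.43% of 23406 genes were called higher. Quantile normalization gave 18 higher and 0 lower, against 33.2% and 26.3% of tested genes.

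**Figure D3:**
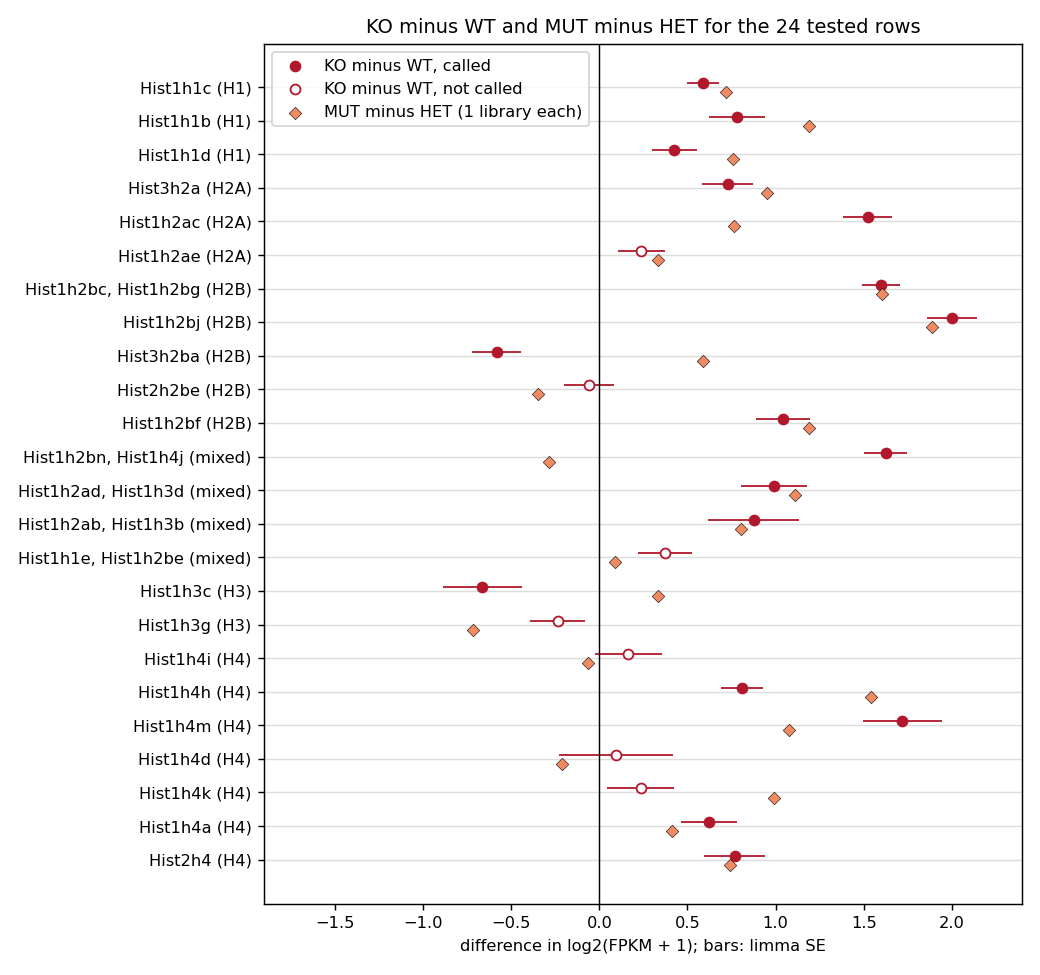
Difference in log2(FPKM + 1) for the 24 tested rows, with KO minus WT as circles (filled where called, bars are limma's SE) and MUT minus HET as diamonds (1 library each), grouped by class. Hist1h2bj has the largest KO difference, 2.0, and Hist3h2ba and Hist1h3c lie left of 0 in KO minus WT and right of 0 in MUT minus HET.

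All 3 tested rows naming H1 alone were called higher in KO, against 29.5% of tested genes. Hist1h1e was tested only in a mixed row with Hist1h2be, which was not called (limma adjusted p = 0.0594). Hist1h1c (ENSMUSG00000036181.2, GRCm38 chromosome 13, 23738808 to 23740367, plus strand), which encodes a linker histone found in most cells, stood at 74.3 and 77.8 FPKM in KO, against 50.4 and 50.1 FPKM in WT, and at 81.0 FPKM in MUT, against 48.8 FPKM in HET. The libraries given 4OHT all lay above those given vehicle. Its log2 difference was 0.59 in KO minus WT (SE 0.09, limma adjusted p = 0.000342). Hist1h1b, a linker histone of dividing cells, stood at 3.64 and 2.55 FPKM in KO, against 1.60 and 1.15 FPKM in WT, and at 3.59 FPKM in MUT, against 1.01 FPKM in HET. It differed by 0.78 (SE 0.16, adjusted p = 0.00177). Hist1h1d, another linker histone, differed by 0.43 (SE 0.13, adjusted p = 0.0163), with 2.65 and 2.18 FPKM in KO, against 1.46 and 1.61 FPKM in WT, and 2.74 FPKM in MUT, against 1.21 FPKM in HET. That call ended when WT 1 (adjusted p = 0.0629) or KO 1 (adjusted p = 0.129) was left out. Hist1h1a stayed under 1 FPKM but for 1.21 FPKM in MUT. Hist1h1t, the testis linker histone, did not exceed 0.103 FPKM in any library. A second row of Hist1h1c, not used, gave 16.2 and 12.2 FPKM in KO, against 10.7 and 13.8 FPKM in WT, and these overlap.

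Of 3 tested H2A rows, 2 were called higher in KO, against 29.5% of tested genes, and Hist1h2ae was not called. Hist3h2a (ENSMUSG00000078851.4, chromosome 11, 58954685 to 58956830, plus strand), an H2A gene outside the main cluster, stood at 68.8 and 91.9 FPKM in KO, against 42.7 and 53.1 FPKM in WT, and at 66.8 FPKM in MUT, against 34.0 FPKM in HET. No library given vehicle reached the lowest value with 4OHT. The log2 difference was 0.73 (SE 0.15, adjusted p = 0.00165), and it was not called when low genes were kept in the fit (adjusted p = 0.160). Hist1h2ac stood at 3.70 and 4.43 FPKM in KO, against 0.62 and 0.91 FPKM in WT, and at 1.87 FPKM in MUT, against 0.69 FPKM in HET. It passed the filter only through libraries given 4OHT, and its difference was 1.52 (SE 0.14, adjusted p = 6.52e-06). The other 11 H2A rows did not pass, and 9 of the 14 rows of the class were under 1 FPKM throughout. Hist1h2ae, a neighbour of Hist1h2bg, stood at 1.77 and 1.67 FPKM in KO, against 1.11 and 1.51 FPKM in WT, and at 1.45 FPKM in MUT, against 0.947 FPKM in HET (KO minus WT 0.24, adjusted p = 0.154). It was called higher after quantile normalization (adjusted p = 0.00679). Hist1h2aa, a testis H2A, was read in WT 2 alone, at 0.225 FPKM.

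H2B held the highest row of the family. It also held the tested row with the largest difference, Hist1h2bj, which passed the filter only through libraries given 4OHT. Hist1h2bc and Hist1h2bg, 2 H2B genes of the Hist1 cluster, share 1 row, so its level cannot be assigned to either. Hist1h2bc (ENSMUSG00000018102.5) is annotated at 23684199 to 23692908 and Hist1h2bg (ENSMUSG00000058385.8) at 23571396 to 23572013, both on the plus strand of chromosome 13. The row stood at 289 and 334 FPKM in KO, against 98.3 and 106 FPKM in WT, and at 206 FPKM in MUT, against 67.1 FPKM in HET. Every library given 4OHT lay above every library given vehicle, at 3.05 times the WT mean in KO and 3.07 times HET in MUT. The log2 difference in KO minus WT was 1.60 (SE 0.11, limma adjusted p = 7.14e-07). A row naming Hist1h2bc alone, not used, was low, at 2.05 and 2.59 FPKM in KO, against 0.95 and 1.15 FPKM in WT, and at 1.40 FPKM in MUT, against 1.08 FPKM in HET.

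Hist1h2bj and Hist1h2bf, further H2B genes of the Hist1 cluster, passed only through libraries given 4OHT. Hist1h2bj stood at 5.28 and 4.32 FPKM in KO, against 0.57 and 0.33 FPKM in WT, and at 3.37 FPKM in MUT, against 0.18 FPKM in HET, a log2 difference of 2.0 in KO minus WT (SE 0.14, adjusted p = 1.06e-06). Hist1h2bf stood at 1.47 and 1.53 FPKM in KO, against 0.37 and 0.08 FPKM in WT, and at 2.05 FPKM in MUT, against 0.34 FPKM in HET, a difference of 1.04 (SE 0.15, adjusted p = 0.000213). Both KO libraries lay above both WT libraries in each, as in 40.9% of tested genes. The filter admitted these rows through 4OHT libraries alone and so favoured this order. Neither the order nor the calls carry weight for the family. Both genes have a neighbour read the other way. Hist1h2ag, an H2A gene whose start lies 270 bases from that of Hist1h2bj, gave 0 and 0.18 FPKM in KO, against 1.0 and 0.18 FPKM in WT, levels of few fragments from which no order is read. Hist1h2bf starts 185 bases from Hist1h2ad, whose row was higher in KO.

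Hist3h2ba (ENSMUSG00000056895.4, chromosome 11, 58948920 to 58949533, plus strand), an H2B gene close to Hist3h2a, was lower in KO. It stood at 1.11 and 1.17 FPKM in KO, against 1.90 and 2.54 FPKM in WT, a log2 difference of -0.58 (SE 0.14, adjusted p = 0.00448). In the E861A background the order was the other way, with 2.45 FPKM in MUT and 1.29 FPKM in HET. The KO difference was not called after quantile normalization (adjusted p = 0.0571) or with low genes kept in the fit (adjusted p = 0.103). Hist2h2be, an H2B gene known also to give polyadenylated transcripts, was not called, at 0.82 and 0.99 FPKM in KO, against 0.82 and 1.16 FPKM in WT, and at 0.91 FPKM in MUT, against 1.43 FPKM in HET. Hist1h2ba, a testis H2B, was at 0 in all 6 libraries, and the pseudogene Hist3h2bb-ps was read only in MUT, at 0.87 FPKM, and HET, at 0.25 FPKM.

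H3 genes were low in every group. Hist1h3c stood at 0.60 and 0.18 FPKM in KO, against 1.77 and 0.72 FPKM in WT, and at 1.81 FPKM in MUT, against 1.23 FPKM in HET. Its log2 difference was -0.66 in KO minus WT (SE 0.22, adjusted p = 0.0264), and that call ended when WT 1 (adjusted p = 0.182) or KO 2 (adjusted p = 0.0529) was left out, and likewise under quantile normalization (adjusted p = 0.0929) and with low genes kept in the fit (adjusted p = 0.362). Hist1h3g was not called, at 0.77 and 0.80 FPKM in KO, against 0.83 and 1.42 FPKM in WT, and at 0.25 FPKM in MUT, against 1.06 FPKM in HET. It was called lower without WT 1 (adjusted p = 0.0270). Hist1h3e, the next by level, did not pass the filter, at 0.59 and 0.55 FPKM in KO, against 0.35 and 0.72 FPKM in WT, and at 0.99 FPKM in MUT, against 0.86 FPKM in HET.

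Of 7 tested H4 rows, 4 were called higher in KO, against 29.5% of tested genes, and 3 were not called, the highest one among them. Hist1h4i (ENSMUSG00000060639.5, chromosome 13, 22040636 to 22041362, minus strand) was the highest H4 gene and did not separate the groups, with 31.3 and 51.0 FPKM in KO, against 32.0 and 39.6 FPKM in WT, and 40.8 FPKM in MUT, against 42.7 FPKM in HET. Its KO libraries differed more from each other than the groups did, and the difference of 0.17 (adjusted p = 0.48) was called at 0.51 without KO 1 (adjusted p = 0.000235) and turned to -0.18 without KO 2. Hist1h4h (ENSMUSG00000060981.7, chromosome 13, 23531050 to 23531519, plus strand) stood at 31.2 and 36.8 FPKM in KO, against 17.5 and 20.5 FPKM in WT, and at 20.9 FPKM in MUT, against 6.51 FPKM in HET. Its difference was 0.81 (SE 0.12, adjusted p = 0.000195), and HET lay below every other library. Hist1h4m stood at 11.5 and 10.2 FPKM in KO, against 3.88 and 1.66 FPKM in WT, and at 6.06 FPKM in MUT, against 2.35 FPKM in HET. It differed by 1.72 (SE 0.22, adjusted p = 8.85e-05), the largest difference among the tested H4 rows.

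Hist2h4 and Hist1h4a, further H4 genes, were called higher by 0.77 (SE 0.17, adjusted p = 0.00334) and 0.62 (SE 0.16, adjusted p = 0.00673), both with levels under 2.5 FPKM. Hist1h4a passed the filter only through libraries given 4OHT. Hist1h4d was not called, with 2.55 and 8.16 FPKM in KO, against 4.37 and 4.31 FPKM in WT. It was called higher without KO 1 (0.78, adjusted p = 4.17e-06) and lower without KO 2 (-0.59, adjusted p = 0.00133), and it was the only tested row at least 2-fold apart between the KO libraries on the log2(FPKM + 1) scale. Hist1h4k, with 5.85 and 4.47 FPKM in KO, against 3.18 and 5.47 FPKM in WT, was not called (0.24, adjusted p = 0.312), but was without WT 2 (0.55, adjusted p = 0.0223) or without KO 2 (0.40, adjusted p = 0.0290). Hist4h4, the single gene of its locus, stood at 0.30 and 0 FPKM in KO, against 0.67 and 0.23 FPKM in WT, and at 0.25 FPKM in MUT, against 0.72 FPKM in HET.

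The 4 rows that name genes of different classes all had both KO libraries above both WT libraries, against 40.9% of tested genes. Of these rows 3 were called higher, against 29.5% of tested genes. Hist1h2bn with Hist1h4j stood at 4.25 and 4.67 FPKM in KO, against 0.69 and 0.86 FPKM in WT, a log2 difference of 1.62 (SE 0.12, adjusted p = 1.97e-06). Its MUT library, at 3.01 FPKM, lay below HET, at 3.89 FPKM. Hist1h2ad with Hist1h3d stood at 2.88 and 3.92 FPKM in KO, against 0.81 and 1.68 FPKM in WT, and at 2.70 FPKM in MUT, against 0.71 FPKM in HET (0.99, SE 0.19, adjusted p = 0.0012). Hist1h2ab with Hist1h3b stood at 2.73 and 4.12 FPKM in KO, against 0.73 and 2.28 FPKM in WT, and at 1.48 FPKM in MUT, against 0.42 FPKM in HET. It differed by 0.88 (SE 0.26, adjusted p = 0.0139), a call that ended when WT 1 was left out (adjusted p = 0.104). Hist1h1e with Hist1h2be, genes whose annotated spans overlap, stood at 1.76 and 2.14 FPKM in KO, against 0.996 and 1.59 FPKM in WT, and at 1.82 FPKM in MUT, against 1.65 FPKM in HET, and was not called (0.37, adjusted p = 0.0594). That row was called with quantile normalization (adjusted p = 0.00314), without WT 2 (0.0119) and without KO 1 (0.0269), and in the fit with a replicate block (0.0229). In such rows the level cannot be assigned to either class.

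MUT stood above HET in 19 of the 24 tested rows, against 50.6% of tested genes, and below it in 5, against 49.4% of tested genes. At 2-fold or more on the log2(FPKM + 1) scale, 7 were higher in MUT, against 4.93% of tested genes, and 0 were lower, against 8.77% of tested genes. In KO 6 were at least 2-fold higher than in WT, against 4.68% of tested genes. Without the 6 rows that passed the filter through 1 treatment only, these counts were 5 of 18 in MUT and 3 of 18 in KO. MUT and HET are 1 library each, so no difference between them has a replicate check. The test of the KO effect minus the MUT effect, in which MUT and HET are assumed to vary like KO and WT, called 2 of the 24 tested rows, against 4.01% of tested genes. For Hist1h2bn with Hist1h4j the KO effect exceeded the MUT effect by 1.91 (SE 0.21, adjusted p = 0.00126), since MUT stood at 3.01 FPKM and HET at 3.89 FPKM. A row naming Hist1h2bn alone, not used, gave 0.76 and 1.13 FPKM in KO, against 0.23 and 0.32 FPKM in WT. In that row MUT, at 0.59 FPKM, stood above HET, at 0.34 FPKM, the same direction as in KO, at levels of few fragments. For Hist3h2ba the effects differed by -1.17 (SE 0.24, adjusted p = 0.0242). Keeping low genes in the fit ended both calls (adjusted p = 0.0892 for Hist1h2bn with Hist1h4j and 0.267 for Hist3h2ba). That fit called 3 other rows of the 60, against 2.47% of 23406 genes, each with the KO effect below the MUT effect. Without KO 1 the test called 8 rows, against 9.72% of tested genes.

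The vehicle libraries of the 2 backgrounds set side by side, and the 4OHT libraries likewise, were close for Hist1h1c, at 81.0 FPKM in MUT, against 74.3 and 77.8 FPKM in KO, and 48.8 FPKM in HET, against 50.4 and 50.1 FPKM in WT. For Hist1h2bc with Hist1h2bg both E861A libraries were lower, at 206 FPKM in MUT, against 289 and 334 FPKM in KO, and 67.1 FPKM in HET, against 98.3 and 106 FPKM in WT. For Hist1h4h they were lower too, with MUT at 20.9 FPKM and HET at 6.51 FPKM. With 1 library on a side these are values without a test.

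Levels were set beside the annotated end of the transcripts. Among members alone on their row, 13 genes had 300 or more annotated bases past the stem-loop in their longest transcript. Of these, 7 averaged at least 1 FPKM and 3 at least 10 FPKM, namely Hist1h1c with 840 bases, Hist3h2a with 1643 and Hist1h4i with 330. Among 17 genes with 100 bases or fewer past it, 4 averaged at least 1 FPKM and 1, Hist1h4h, at least 10 FPKM. The median level was 1.03 FPKM for the longer ends and 0.368 FPKM for the shorter. It was 1.41 FPKM for the 3 genes between 100 and 300 bases, above the longer ends, so the levels did not rise steadily with the end. The 22 genes without stem-loop letters had a median of 0.219 FPKM. Rows naming several genes, the highest row among them, are left out. These are levels per length, which for short transcripts depend on how fragments that fit into them were counted. Whether the KO difference depends on the annotated end was not tested. Hist1h2bc, known also to give a polyadenylated transcript, has no stem-loop letters in its annotated transcript.

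**Figure D4:**
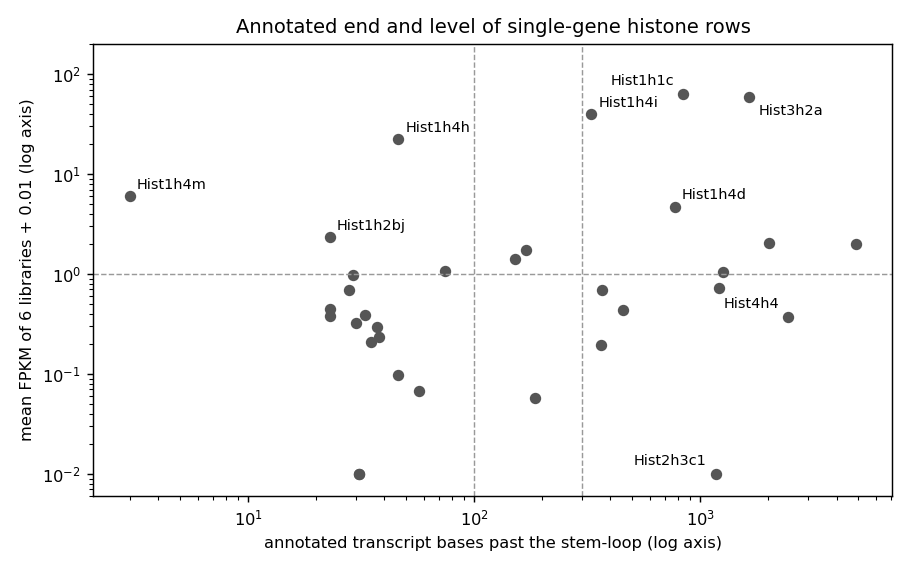
Annotated transcript bases past the stem-loop (log axis) against mean FPKM over the 6 libraries plus 0.01 (log axis), 1 point per member gene alone on its row, with dashed lines at 100 and 300 bases and at 1 FPKM. Hist1h1c, Hist3h2a and Hist1h4i stand at upper right, while Hist1h4h reaches 22.2 FPKM with 46 bases.

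Genes of DNA replication moved the other way. All 33 on the list were called lower in KO, against 28.2% of tested genes, with a median log2 difference of -1.35. In MUT all 33 stood below HET by some amount, against 49.4% of tested genes, with a median of -1.20. Rrm2, a subunit of the enzyme that makes deoxyribonucleotides, stood at 25.6 and 25.6 FPKM in KO, against 127 and 143 FPKM in WT (log2 difference -2.35, SE 0.10, adjusted p = 3.89e-08). Prim1, the catalytic subunit of primase, differed by -2.26 (SE 0.11, adjusted p = 8.57e-08), and Mcm5, a subunit of the replicative helicase, by -2.23 (SE 0.12, adjusted p = 1.34e-07). Summed over the list, the level was 436 and 400 FPKM in KO, against 1094 and 1159 FPKM in WT, and 594 FPKM in MUT, against 1473 FPKM in HET. The family's sum per unit of this list was 1.29 and 1.65 in KO, against 0.253 and 0.269 in WT, and 0.795 in MUT, against 0.160 in HET. Every library given 4OHT had a higher ratio than every library given vehicle.

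**Figure D5:**
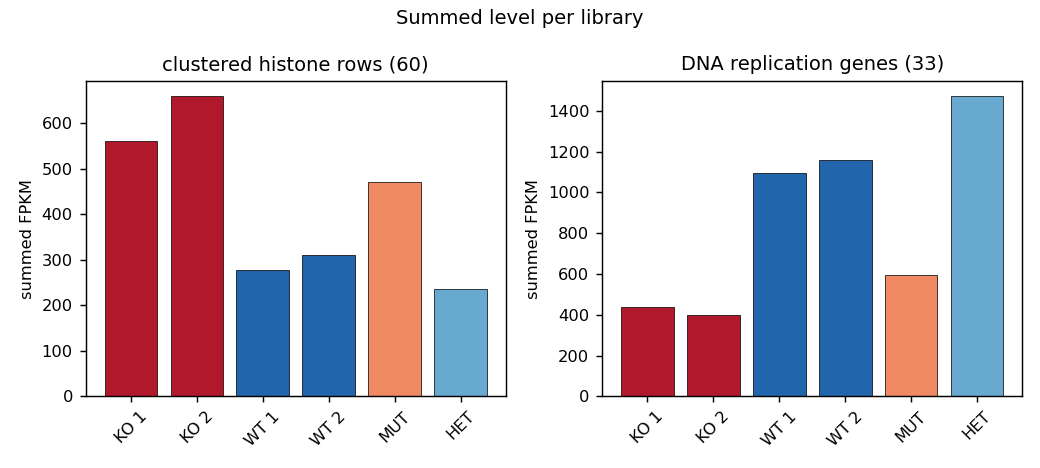
Summed FPKM of the 60 histone rows (left) and of the 33 DNA replication genes (right), 1 bar per library, each axis from 0. Histone sums are higher in KO (560 and 660 FPKM) than in WT (277 and 311 FPKM), and replication sums are lower in KO (436 and 400 FPKM) than in WT (1094 and 1159 FPKM).

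Histone genes outside the clusters encode replacement and other variants, most of them made outside S phase as well. Of 10 tested, 8 were lower in KO, 0 higher and 2 not called (H3f3b and H2afy2), with a median of -0.76, against 28.2% lower and a median of 0.02 for all tested genes. Cenpa, the H3 variant of centromeres, whose transcripts peak late in the cell cycle, stood at 5.89 and 4.85 FPKM in KO, against 45.8 and 45.6 FPKM in WT, and at 11.5 FPKM in MUT, against 62.3 FPKM in HET (KO minus WT -2.88, SE 0.11, adjusted p = 2.1e-08). H2afz, the variant H2A.Z of promoters, stood at 119 and 131 FPKM in KO, against 615 and 594 FPKM in WT (-2.27, adjusted p = 4.45e-08), and H2afv, its close relative, differed by -1.58 (adjusted p = 3.71e-07). By level per length, H3f3b, which encodes H3.3, stood at 452 and 483 FPKM in KO, against 516 and 610 FPKM in WT, far above every clustered H3 row.

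Factors that make and handle these transcripts and proteins were read in the same fit, in which 28.2% of tested genes were lower and 29.5% higher. Of 20 tested genes of histone transcription, 3′ processing and decay, 9 were lower in KO, 3 higher and 8 not called, with a median of -0.21, against 0.02 for all tested genes. Slbp, which binds the stem-loop, stood at 15.2 and 16.4 FPKM in KO, against 25.1 and 27.8 FPKM in WT (-0.70, SE 0.10, adjusted p = 0.00019). Cdk2 and its partner Ccne1, which act at entry to S phase, differed by -1.15 (adjusted p = 5.08e-06) and -1.02 (adjusted p = 1.59e-05). The higher ones were Cpsf2, a subunit of the cleavage complex, Zcchc6, a uridylyltransferase, and Lsm10, a subunit of the U7 particle. Npat, the coactivator of histone genes, was not called, at 4.95 and 5.86 FPKM in KO, against 5.47 and 6.56 FPKM in WT. Of 21 tested chaperone genes, 11 were lower, 1 higher (Daxx) and 9 not called, with a median of -0.27. Nasp, which carries H3 and H4, stood at 13.7 and 13.4 FPKM in KO, against 69.3 and 77.1 FPKM in WT (-2.35, adjusted p = 3.78e-08), Hirip3, a partner of HIRA, differed by -1.42 (adjusted p = 2.5e-06), and Chaf1b, a subunit of the assembly factor CAF-1, by -1.19 (adjusted p = 4.29e-06).

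Cell type marker sums were lower in KO than in WT in every set but the endothelial one, whose KO and WT sums overlapped. The 9 pluripotency markers summed to 33.6 and 17.6 FPKM in KO, against 693 and 570 FPKM in WT, and to 48.9 FPKM in MUT, against 722 FPKM in HET, with 9 of 9 lower in KO. Fibroblast markers summed to 2412 and 2418 FPKM in KO, against 5519 and 5145 FPKM in WT, and to 3304 FPKM in MUT, against 5079 FPKM in HET, with 8 of 10 lower. The 4 epithelial markers were all lower, with sums of 10.1 and 8.64 FPKM in KO, against 116 and 131 FPKM in WT, and 11.2 FPKM in MUT, against 157 FPKM in HET. Of the other sets, macrophage markers had 1 lower of 6 (5 in the files), and endothelial markers had 1 higher and 2 lower of 4. Neural markers had 3 lower of 4 and germ cell markers 1 lower of 5, with Tnp1 at 0 in all libraries. Only 2 macrophage, 3 endothelial, 3 neural and 1 germ cell markers reached 1 FPKM in any library. Markers that did not pass the filter were not tested, so they are not read as unchanged. Over all tested genes 28.2% were lower in KO and 29.5% higher. The sums ran from 5.12 to 5.99 FPKM in KO, 21.4 to 25.5 FPKM in WT, 9.51 FPKM in MUT and 42.2 FPKM in HET for macrophage markers. For endothelial markers they ran from 4.34 to 4.44 FPKM in KO, 4.13 to 4.52 FPKM in WT, 3.66 FPKM in MUT and 7.09 FPKM in HET. For neural markers they ran from 42.1 to 56.0 FPKM in KO, 144 to 158 FPKM in WT, 48.7 FPKM in MUT and 175 FPKM in HET. For germ cell markers they ran from 0.632 to 1.42 FPKM in KO, 4.34 to 4.98 FPKM in WT, 2.83 FPKM in MUT and 3.24 FPKM in HET. The part of cell makeup in the histone levels was not tested.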

How the data were processed

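The 6 libraries, grouped by their titles, came from TRIzol RNA after removal of ribosomal RNA, per the labels' protocols. The authors deposited FPKM for each gene, as the file headers name it, written with decimal commas. Tools named in the submitters' processing notes are Cufflinks 2.2.1, Bowtie2 2.3.0 and TopHat2 2.1.1, with GRCm38 and mm10. For the tools' roles, the annotation and strand, nothing is given in the sources used here. Unless strand was used, reads of overlapping genes on opposite strands are mixed, and near-identical histone genes can share reads, so single members are uncertain. The 1021 rows with no gene name were not used.

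Values were analysed as log2(FPKM + 1), which understates the change of low genes, with limma 3.58.1 in R 4.3.3 (trended eBayes, two-sided, Benjamini-Hochberg adjusted, called under 0.05) on genes with at least 1 FPKM in at least 2 of 6 libraries. KO against WT used 4 libraries, and the difference between effects used all 6. MUT against HET, class sums and side-by-side values had no test. On simulated data with 200 of 12266 genes changed by a log2 of 1, limma recovered 100% with 1 false call for KO against WT. For the difference between effects it recovered 98.5% with 11 false calls. The changed genes were drawn from those of higher WT level, which leaves out low rows such as Hist1h2bj. The simulated noise was normal and alike in all libraries, and far fewer genes changed than the 57.7% called here. The recovery thus does not cover calls on low rows, or how far MUT and HET truly vary. The members, gene lists and markers were chosen with earlier results of these data known. Genes named with values are the 3 highest members of each class, the 2 called members of smallest p in each direction, the testis, polyadenylated, Hist3 and Hist4 members, those called in the difference between effects, and the 3 of smallest p in each list. Other genes named were chosen after their values were seen. Stem-loops and coordinates are from GENCODE M 21 on GRCm38, promoters from RefSeq on GRCm38.p6. Alternatives were the pseudocount 0.1, no filter, median-of-ratios and quantile scaling, summed rows, rows naming several genes left out, a replicate block and each library left out.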

Additional observations from a re-analysis of the deposited data

Results flagged for a closer look

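For 2 members the KO effect and the MUT effect differed by the test of the difference itself. For Hist1h2bn with Hist1h4j the difference of effects was 1.91 in log2 units (SE 0.21, limma adjusted p = 0.00126). For Hist3h2ba it was -1.17 (SE 0.24, limma adjusted p = 0.0242). Both rest on 1 MUT and 1 HET library. In the unused row naming Hist1h2bn alone, MUT (0.59 FPKM) stood above HET (0.34 FPKM), unlike in the row tested.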

How the results depend on the processing

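Of the 17 called histone rows, 13 higher and 0 lower stayed called under every alternative in which they were tested, except no filter on low values, and 6 of these stayed called with no filter too. With no filter, 6 rows were higher and 1 lower, 1973 of all genes were higher, and the processing and chaperone lists had 1 and 0 higher. Quantile normalization left 0 lower. The replicate block called 16 higher and 2 lower, against 33.6% and 31.3% of tested genes, and called 5 rows in the difference between effects, against 9.71%. Replicate differences of KO and WT had a correlation of 0.183 over genes, from 2 pairs, so the numbers were not taken as pairing. Leaving out 1 library at a time gave 13 to 17 rows higher, 1 to 3 higher genes of the processing list and 3 to 8 rows in the difference between effects, which was 1 without rows naming several genes. MUT against HET had 13 of 24 rows 2-fold apart with a pseudocount of 0.1, against 18.5% of tested genes, and 15 called with a spread pooled from KO and WT, against 43.3%. Some class medians over all rows moved from their values at a pseudocount of 1, which were 0.43 in KO and 0.76 in MUT for H1, 0 and 0.027 for H2B, -0.19 and 0 for H3, 0.13 and 0.42 for H4, and 0.93 and 0.45 for mixed rows. With a pseudocount of 0.1 they were 0.61 in KO and 1.11 in MUT for H1, 0.23 in MUT for H2B, -0.42 in KO for H3, 0.94 in MUT for H4, and 1.37 in KO and 0.87 in MUT for mixed rows. With quantile normalization they were 0.93 in MUT for H1, 0.14 in KO for H2B, 0 in KO for H3 and 0.57 in MUT for H4. Without 1 library the KO median ran from -0.20 to 0 for H3 and from -0.071 to 0.42 for H4. Hist1h4i ran from -0.18 to 0.51 and Hist2h2be from -0.18 to 0.064 without 1 library, and Hist2h2be stood at 0.18 with quantile normalization. The causes were not tested. Depth limits rows under 1 FPKM, which rest on few fragments.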
